A study of Mus musculus with 54 samples.

Results

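The class I olfactory receptor cluster of mouse chromosome 7 is described here by its replication timing on each parental allele. Its members were taken as the genes whose symbol starts with Olfr and whose start lies in a 3.5 Mb interval of chromosome 7 (mm10) that holds the beta-globin genes. They number 158, of which 126 are protein-coding and 32 are pseudogenes, out of 1419 annotated autosomal olfactory receptor genes. All 158 fall in at least 1 of 49 windows of 50 kb, out of 43941 autosomal windows measured. A window holds 1 to 5 members (median 3), so members of a window share 1 value. The first member is Olfr543, which starts at 102476773, and the last is Olfr692, which ends at 105369317.

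Olfactory receptors are G-protein-coupled receptors, and a mature olfactory sensory neuron expresses a single allele of a single receptor gene. Class I receptors are the fish-like branch of the family, and their mouse genes sit together around the beta-globin locus, whereas class II genes are spread over many chromosomes. Early replication usually goes with open, transcribed chromatin and late replication with silent chromatin, and none of the cells profiled here is an olfactory neuron.

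The assay was Repli-Seq, in which DNA made during a BrdU pulse is recovered from cells sorted by DNA content into an early and a late fraction of S phase and is then sequenced. Each of the 27 profiles pairs 1 early and 1 late library and gives 1 value per allele, a log ratio of early over late signal that is read here as log2. Neural precursor cells (NPCs, day 11 of a monolayer differentiation) came from the lines F121-9 (1 profile) and Cas129 (2 profiles). From each of 4 embryos there were 2 profiles of mouse embryonic fibroblasts (MEFs). Embryonic stem cells (ESCs) came from F121 (1 profile), F121-6 (4), F121-9 (4), F123 (2) and Cas129 (2), all grown in 2i medium without feeders except that F121-6 and F121-9 have 2 of their 4 profiles from cells on inactivated MEF feeders. All of these are hybrids of 129 and Cas (Mus castaneus), labelled with 129 first for F121, F121-6, F121-9 and F123 and with Cas first for Cas129 and the MEFs. Each ESC or NPC line is counted as 1 unit, and the NPC lines are among the ESC lines too. F121, F121-6 and F121-9 share a name root, a cross and a sex label. The labels do not say whether they were derived separately or are clones of 1 source. If they are clones, the SDs and tests over ESC lines treat related cells as independent. A line of extraembryonic endoderm (XEN) cells with C57B6 and Cas alleles (2 profiles) and V6.5 ESCs with C57B6 and 129 alleles (1 profile, 2i medium) have other parents, so their values are given with no test. Below, timing is the mean of both alleles, the allelic difference is 129 minus Cas, and n counts lines or embryos, whose profiles were averaged first, with SDs over them after ± unless SE is written. Each value averages a population of cells, so a large shift in some cells and a smaller one in all cannot be told apart. Where nothing says that repeat profiles came from separate cultures, the spread between them may be technical.

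Some profiles go against their labels or stand apart. On the X, the 129 column of both embryo 1 profiles was nearly flat (SD along the chromosome of 0.25 and 0.30) although embryo 1 is labelled female. Neither column of embryo 3, labelled male, was flat (SD of 1.32 to 1.69). In the V6.5 profile, labelled male, both columns varied along the X (SD of 2.27 each, r = 0.998 between them), and its alleles differed by a median of 0.0289 on the autosomes, against 0.208 to 0.602 in the other profiles. The ESC and NPC columns have autosomal means of -0.67 to -0.54 and the MEF and XEN columns of -0.22 to -0.10, so timing of MEFs against ESCs or NPCs crosses 2 scalings. The file holds no read counts, and depth is unknown. By timing, the markers fitted the cell types in part: Zfp42, a pluripotency gene, had -3.70 in NPCs and -3.90 in MEFs, against 1.88 in ESCs. All 4 ESC markers were called later in NPCs than in ESCs, and all but Klf5 in MEFs. All 4 MEF markers (Prrx1, Twist2, Col6a3 and Fap) were called earlier in MEFs than in ESCs, whereas among the 4 NPC markers Zic1 alone was called earlier in NPCs than in ESCs. The XEN marker Sox17 had 2.64 in XEN cells, against 0.27 in ESCs.

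The promoter stretches of the members were poor in GC and CpG, which the choice by symbol and position did not use. RefSeq (GRCm38.p6) holds a promoter stretch, 250 bases before to 50 after the annotated start, for 109 of the 158 members. Their GC content had a median of 37.3%, close to the 35.0% of the other autosomal olfactory receptor genes and below the 52.7% of all 32851 promoters. They held a median of 1 CpG, against 7 over all promoters. Of the 109 starts, 82 (75.2%) coincide with an ATG, so many of these models begin at the coding sequence and the stretch may miss the true start site. TAATTA, the core letters bound by LIM homeodomain proteins such as Lhx2, was found in 14.7% of member stretches, 19.2% of those of other receptor genes and 5.29% of all. CCCNNGGG, the core letters bound by Ebf proteins, was found in 2.75% of member stretches, 3.12% of those of other receptor genes and 13.7% of all. Both motifs read the same on either strand, overlapping matches were counted, and a match shows letters and not a bound site. The stretches below belong to the members at the extremes described in the text: the earliest window (Olfr543), the latest window in MEFs (Olfr613), the largest allelic difference in XEN cells (Olfr659) and in ESCs (Olfr685). Capitals mark TAATTA, which occurs in the Olfr659 stretch alone.
Olfr543 promoter, chr7:102477853-102478152, minus strand: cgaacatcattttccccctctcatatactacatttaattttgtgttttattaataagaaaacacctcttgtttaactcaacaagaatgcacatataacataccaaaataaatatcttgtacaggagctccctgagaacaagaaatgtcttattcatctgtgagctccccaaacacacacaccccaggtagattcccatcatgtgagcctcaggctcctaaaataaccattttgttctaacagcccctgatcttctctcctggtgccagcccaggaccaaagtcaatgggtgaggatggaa
Olfr613 promoter, chr7:103550118-103550417, plus strand: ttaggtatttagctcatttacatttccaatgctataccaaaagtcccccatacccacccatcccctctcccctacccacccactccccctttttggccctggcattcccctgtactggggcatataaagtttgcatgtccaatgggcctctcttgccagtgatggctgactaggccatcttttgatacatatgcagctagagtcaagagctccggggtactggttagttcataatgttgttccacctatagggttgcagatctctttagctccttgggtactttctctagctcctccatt
Olfr659 promoter, chr7:104670454-104670753, plus strand: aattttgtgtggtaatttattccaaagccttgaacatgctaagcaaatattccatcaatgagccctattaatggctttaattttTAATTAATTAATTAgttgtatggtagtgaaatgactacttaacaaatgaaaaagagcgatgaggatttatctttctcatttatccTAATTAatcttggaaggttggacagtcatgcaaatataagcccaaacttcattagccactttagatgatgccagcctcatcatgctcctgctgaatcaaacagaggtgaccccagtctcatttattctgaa
Olfr685 promoter, chr7:105181262-105181561, minus strand: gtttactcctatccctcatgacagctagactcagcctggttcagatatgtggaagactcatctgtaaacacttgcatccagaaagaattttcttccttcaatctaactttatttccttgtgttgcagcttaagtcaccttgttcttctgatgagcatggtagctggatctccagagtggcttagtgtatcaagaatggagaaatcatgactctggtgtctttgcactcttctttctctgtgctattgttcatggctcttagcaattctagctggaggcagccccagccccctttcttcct

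The cluster replicated late in every cell type, but not along its whole length. The member windows had a median timing of -3.45 in NPCs, -3.10 in MEFs, -2.09 in XEN cells and -2.69 in ESCs, against -0.68, -0.02, -0.01 and -0.68 over all autosomal windows in the same cell types. Line by line, the share of member windows below a timing of -2 was 81.6% ± 5.77 in NPCs (SD, n = 2), 67.3% ± 2.89 in MEFs (n = 4), 53.1% in XEN cells and 62.4% ± 6.05 in ESCs (n = 5). Over all windows that share was 27.2% to 36.8% in any line or embryo. On its near side, at the lower coordinates, the cluster adjoins an early domain. In the window of Olfr543, Olfr544 (a receptor known to respond to azelaic acid) and Olfr545 at chr7:102450001-102500000, timing was 1.99 and 1.73 in the F121-9 and Cas129 NPCs. It was 1.50, 1.67, 1.53 and 0.92 in MEF embryos 1 to 4, and 2.35 and 2.31 in the XEN profiles. The ESC lines had 2.12 (F121), 2.16 (F121-6), 2.19 (F121-9), 1.96 (F123) and 2.36 (Cas129). All cell types were early there. The adjoining gene Rrm1, a subunit of ribonucleotide reductase, had 2.01 in NPCs, 1.56 in MEFs, 2.43 in XEN cells and 2.25 in ESCs.

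From that end timing fell within the first 93 members, the 26 windows before the beta-globin genes, but not steadily along all of them. In ESCs it was -3.73 at Olfr586 to Olfr588-ps1, -2.78 at Olfr601 to Olfr603 and -3.89 at Olfr613 and Olfr615 to Olfr618. Timing passed -1 at 102.732 Mb in NPCs (SD 56.9 kb, n = 2), 102.781 Mb in MEFs (SD 46.3 kb, n = 4), 102.930 Mb in XEN cells and 102.795 Mb in ESCs (SD 70.1 kb, n = 5). The ESC lines passed it at 102.733 to 102.792 Mb except Cas129, at 102.914 Mb, while NPCs of the same Cas129 line passed it at 102.692 Mb. With centred columns timing passed -1 at 102.788 Mb in NPCs, 102.784 Mb in MEFs, 102.931 Mb in XEN cells and 102.853 Mb in ESCs. The order of NPCs and MEFs thus changed with the scaling. The latest member window in MEFs and in ESCs was that of Olfr613 and Olfr615 to Olfr618 at chr7:103550001-103600000. It had -3.89 and -3.40 in F121-9 and Cas129 NPCs and -4.11, -4.50, -4.71 and -4.67 in MEF embryos 1 to 4. XEN profiles had -3.45 and -3.55, and the ESC lines ranged from -4.55 in F121 to -3.43 in F121-6. The ESC range overlapped those of the other cell types, whereas all 4 MEF embryos lay below both NPC lines and both XEN profiles. MEF minus NPC was -0.85 there (adjusted p = 0.0175 by limma), under the minimum size of 1 set for timing calls, and -1.48 with centred columns (adjusted p = 0.000434), which passed. Next to the beta-globin genes, the window of Olfr630, Olfr69, Olfr68 and Olfr67 on the near side had -3.90 ± 0.22 in NPCs, -3.86 ± 0.21 in MEFs, -3.19 in XEN cells and -3.29 ± 0.22 in ESCs. On the far side, the window of Olfr66 and Olfr64 had -3.95 ± 0.19, -3.60 ± 0.09, -2.62 and -2.70 ± 0.31 in the same order.

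**Figure D1:**
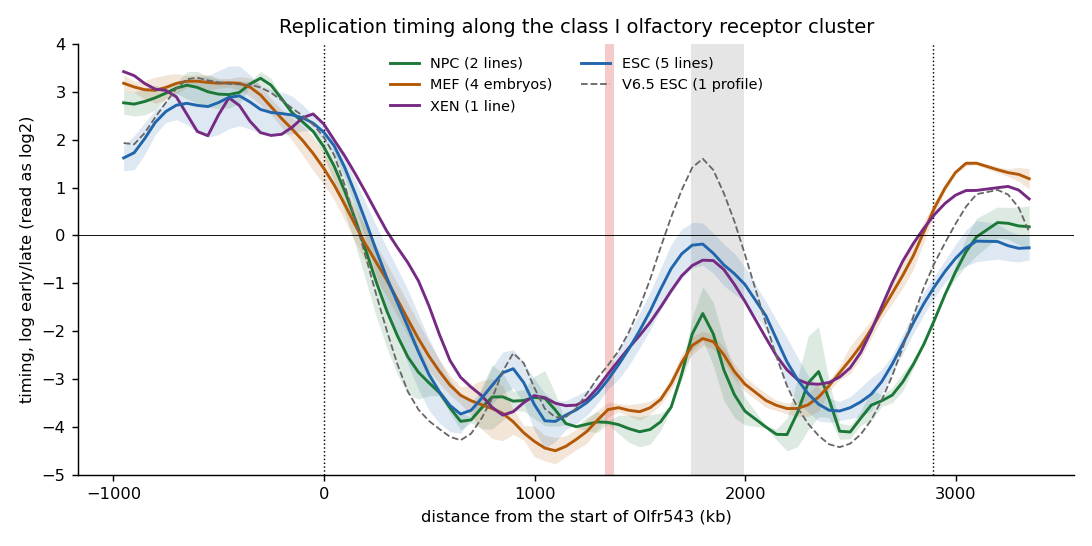
Timing (log ratio of early over late signal, read as log2) against distance in kb from the start of Olfr543, as the mean over NPC lines, MEF embryos, XEN cells and ESC lines, with shading of 1 SD over lines or embryos and a dashed line for the V6.5 profile. Dotted lines mark the first and last member, the red band the beta-globin genes and the grey band the Trim genes from Trim6 to Trim30d; ESC and XEN curves rise near the grey band, to -0.20 in ESCs at the Olfr650-ps1 window, where NPCs have -2.06 and MEFs -2.30.

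Between the beta-globin genes and Trim6, the cluster was later in NPCs and MEFs than in ESCs. In these 8 windows with 23 members, the median timing was -3.92 in NPCs, -3.51 in MEFs, -1.66 in XEN cells and -1.35 in ESCs. Timing calls required a difference of at least 1 and, by limma (two-sided), a p below 0.05 after Benjamini-Hochberg adjustment over all autosomal windows. For NPC minus ESC timing, 11 of the 49 member windows were called, all lower, beside 32.5% of all autosomal windows called in either direction. Of the 43941 autosomal windows, 7053 were called lower and 7220 higher. The 11 windows hold 34 members: all 8 windows (23 members) of this middle stretch and the next 3 windows (11 members) beyond the Trim genes. None of the 26 windows before the beta-globin genes was called. The median difference over the member windows was -0.54, against 0.03 over all windows.

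The largest fall was at Olfr646, in chr7:104100001-104150000. Its timing was -3.56 and -3.61 in F121-9 and Cas129 NPCs. In ESCs it was -1.30 (F121), -0.14 (F121-6), -0.29 (F121-9), -0.62 (F123) and -1.11 (Cas129). The groups did not overlap, and NPC minus ESC was -2.89 ± 0.27 (SE, adjusted p = 3.59e-07 by limma). The neighbouring windows of Olfr642 to Olfr646 and of Olfr647-ps1, Olfr648 and Olfr649 fell by 2.77 and 2.51 on the log2 scale. In the same line, the Olfr642 to Olfr646 window had -3.77 in F121-9 NPCs, against -0.66 in F121-9 ESCs, and -4.02 in Cas129 NPCs, against -1.27 in Cas129 ESCs. The V6.5 profile, at 0.38 at Olfr646, was above all 5 hybrid ESC lines, and the XEN profiles, at -1.22 and -1.10, lay within their range.

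The same stretch was low in MEFs. Olfr646 had -3.10, -3.27, -2.94 and -3.07 in MEF embryos 1 to 4, all below every ESC line, and MEF minus ESC was -2.40 ± 0.22 (SE, adjusted p = 5.9e-08 by limma). The largest falls in this contrast were in the windows of Olfr646, Olfr642 to Olfr646, and Olfr647-ps1 to Olfr649 (-2.40, -2.30 and -2.27). NPC and MEF contrasts share the ESC lines. In all, MEF minus ESC timing was called in 20 of the 49 member windows, 9 up and 11 down, beside 44.0% of all windows. The 11 lower windows were 7 of the middle 8, the 2 windows of Olfr601, Olfr602-ps1, Olfr603 and Olfr605 in the near stretch, and the 2 windows of Olfr651 to Olfr658 beyond the Trim genes. This contrast depends on the scaling: the median over all windows was 0.38 as deposited, -0.26 with each column centred on its autosomal median and -0.06 after quantile normalization. Centring gave 28 called member windows, 1 up and 27 down (47.0% of all windows called). Quantile normalization gave 20, 1 up and 19 down (42.8% of all). The middle stretch fell under each: 7 of 8 windows called as deposited and 8 of 8 under both alternatives.

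At its far end the cluster was earlier in MEFs than in NPCs. The 15 windows after Trim30d, with 42 members, had a median timing of -3.55 in NPCs, -2.30 in MEFs, -2.14 in XEN cells and -2.69 in ESCs. MEF minus NPC timing was called in 11 of 49 member windows beside 33.3% of all windows, with 10 up (26 members, Olfr667 to Olfr692) and 1 down (Olfr610 to Olfr612). In the last window, chr7:105350001-105400000, Olfr692 had 0.48, 0.67, 0.71 and 0.45 in MEF embryos 1 to 4, against -1.78 and -1.76 in F121-9 and Cas129 NPCs. MEF minus NPC was 2.34 ± 0.20 there (SE, adjusted p = 1.07e-07 by limma). The all-window median of this contrast was 0.35 as deposited and -0.29 with centred columns, where the Olfr692 difference was 1.71. With centred columns 14 member windows were called, 6 up at this end and 8 down before the beta-globin genes (34.3% of all windows called). Quantile normalization gave 11, 9 up and 2 down (30.2% of all).

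Olfr692 was also earlier in MEFs than in ESCs, which had -1.20 (F121), -0.74 (F121-6), -1.13 (F121-9), -0.98 (F123) and -1.31 (Cas129). MEF minus ESC was 1.65 ± 0.15 (SE, adjusted p = 8.83e-08 by limma), 1.00 after centring and 1.04 after quantile normalization. The other 8 windows of this end that were called higher in MEFs than in ESCs as deposited, Olfr670 to Olfr691, did not reach the minimum size of 1 under either alternative. In NPC minus ESC no window from Olfr662-ps1 on was called, and Olfr692 differed by -0.70 ± 0.19 (SE). XEN profiles had 0.53 and 0.34 at Olfr692 and V6.5 had -0.58.

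**Figure D2:**
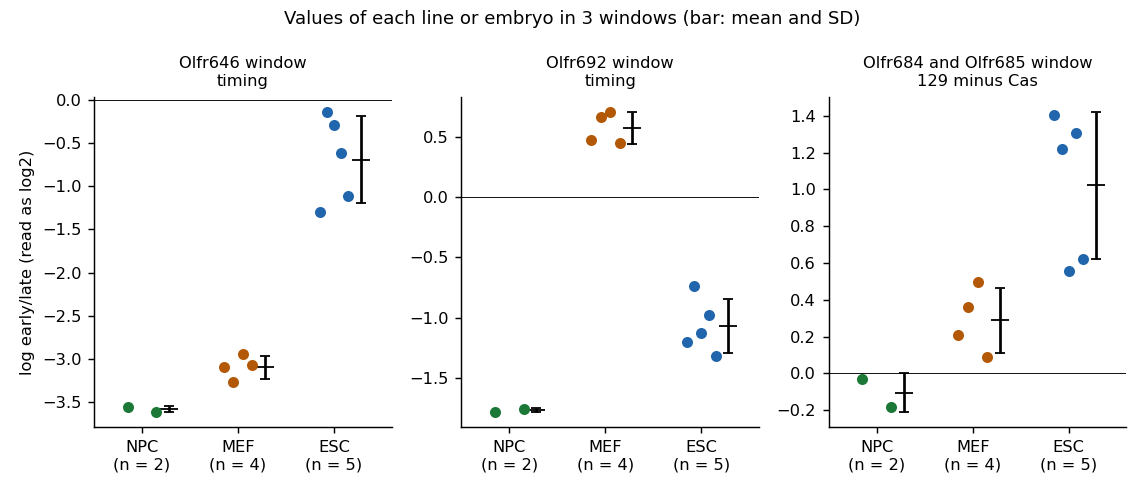
Each point is a line or embryo, with mean and SD beside it, for NPCs, MEFs and ESCs. Left and centre give timing at Olfr646 and Olfr692 and the right panel the allelic difference (129 minus Cas) at Olfr684 and Olfr685, all as log ratios of early over late signal read as log2; at Olfr646 all NPC and MEF points lie below all ESC points, and at Olfr692 all MEF points lie above 0.

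In ESCs the 129 allele replicated earlier than the Cas allele over the far end of the cluster. ESC allelic difference was called (adjusted p below 0.05 and at least 0.5) in 8 of 49 member windows, or 16.3%, beside 25.2% of all windows. Of the 43941 autosomal windows, 5815 were called positive and 5242 negative. All 8 called member windows were positive, and they are 1 unbroken stretch of 20 members from Olfr673-ps1 to Olfr692. Neighbouring windows correlated at 0.974 to 0.994 in the timing of single alleles, so adjoining windows are not independent. Over all member windows the median allelic difference was 0.11, against 0.01 over all windows, and it was 0.59 in the 15 windows after Trim30d.

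In the window of Olfr684 and Olfr685, chr7:105150001-105200000, the ESC lines had 1.40 (F121), 1.22 (F121-6), 0.56 (F121-9), 1.31 (F123) and 0.62 (Cas129). The mean was 1.02 ± 0.40 (SD, n = 5), with an adjusted p of 2.86e-05 (limma), and 12 of 13 ESC profiles were above 0. Cas129, the line labelled with Cas first, had the same sign as the 4 lines labelled with 129 first. NPCs at this window had -0.03 (F121-9) and -0.18 (Cas129), and MEF embryos 1 to 4 had 0.21, 0.36, 0.50 and 0.09, all below every ESC line. NPC minus ESC was -1.13 ± 0.24 (SE, adjusted p = 0.00707 by limma) and MEF minus ESC was -0.73 ± 0.19 (adjusted p = 0.0113). With F121-9 and Cas129 alone, paired by line, NPC minus ESC was -0.70 (adjusted p = 0.141), which did not pass. The 2 repeat profiles of Cas129 NPCs had 0.76 and -1.12, so their mean near 0 hides opposite signs. The windows of Olfr681 to Olfr683 and of Olfr686 and Olfr687 had ESC means of 0.97 ± 0.41 and 0.96 ± 0.32.

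**Figure D3:**
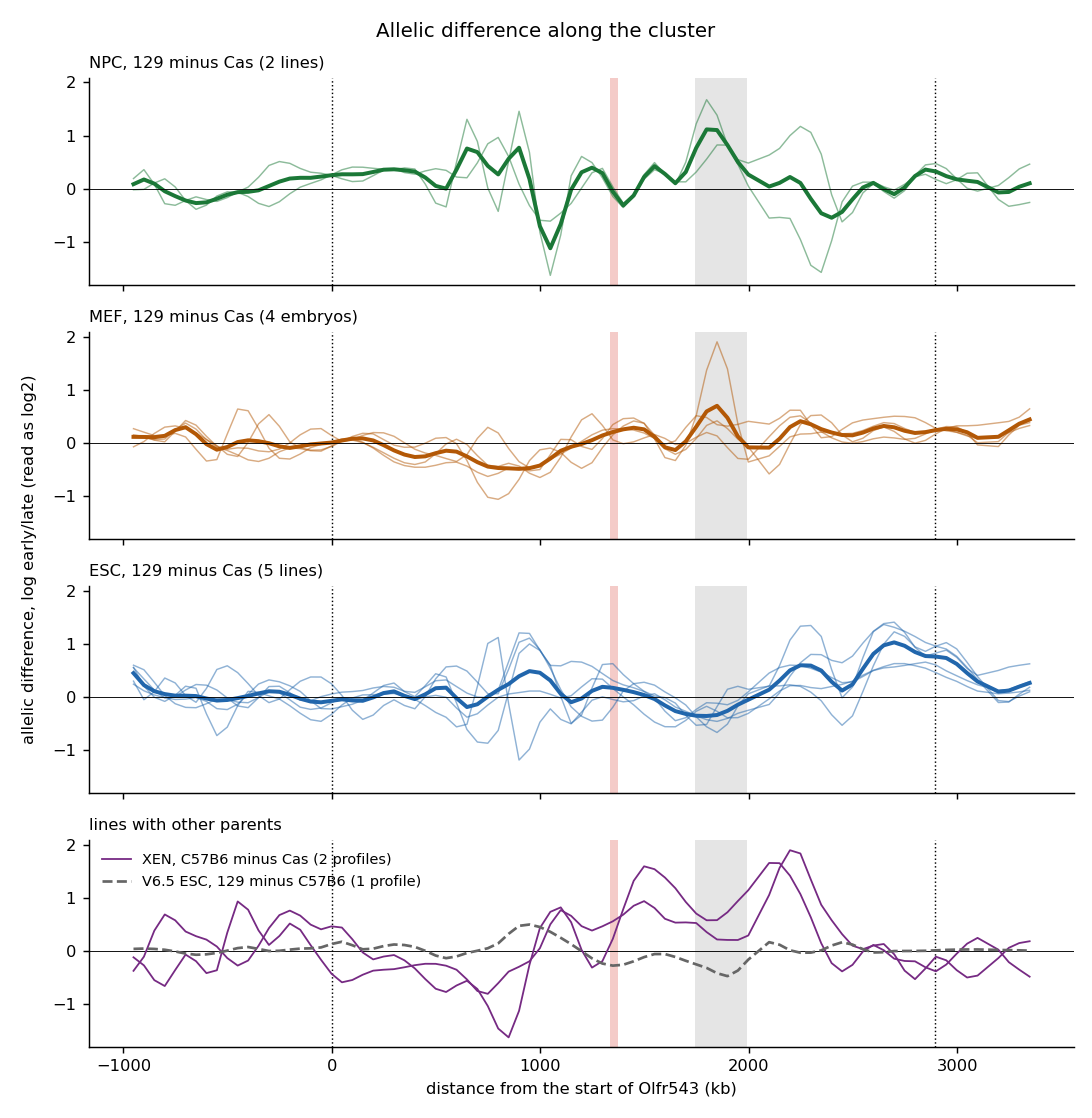
Allelic difference (log ratio of early over late signal, read as log2) against distance in kb from the start of Olfr543. The upper panels give 129 minus Cas for NPC lines, MEF embryos and ESC lines (thin lines) with their mean (thick line), and the lowest panel gives C57B6 minus Cas in 2 XEN profiles and 129 minus C57B6 in V6.5; bands and dotted lines mark the beta-globin genes, the Trim genes and the ends of the cluster. All 5 ESC lines are above 0 near the far end, with a mean of up to 1.02.

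The position of the far edge differed between alleles accordingly. The edge was placed where timing passes -1, by interpolation between window centres. The 129 edge minus the Cas edge was -22.7 ± 5.87 kb in NPCs (SD, n = 2), -30.2 ± 22.6 kb in MEFs (n = 4) and -111 ± 38.9 kb in ESCs (n = 5), so late replication ended nearer to the beta-globin genes on the 129 allele in all 11. The ESC lines had -102 (F121), -133 (F121-6), -76.2 (F121-9), -167 (F123) and -78.0 kb (Cas129), whereas NPC lines had -26.8 and -18.5 kb and MEF embryos -54.3 to -8.87 kb. With centred columns the shifts were -24.7, -33.2 and -96.5 kb. No test was made on these shifts. On the mean of both alleles the edge lay at 105.451 Mb in NPCs, 105.205 Mb in MEFs, 105.173 Mb in XEN cells and 105.388 Mb in ESCs, or 105.385, 105.202, 105.172 and 105.296 Mb with centred columns.

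**Figure D4:**
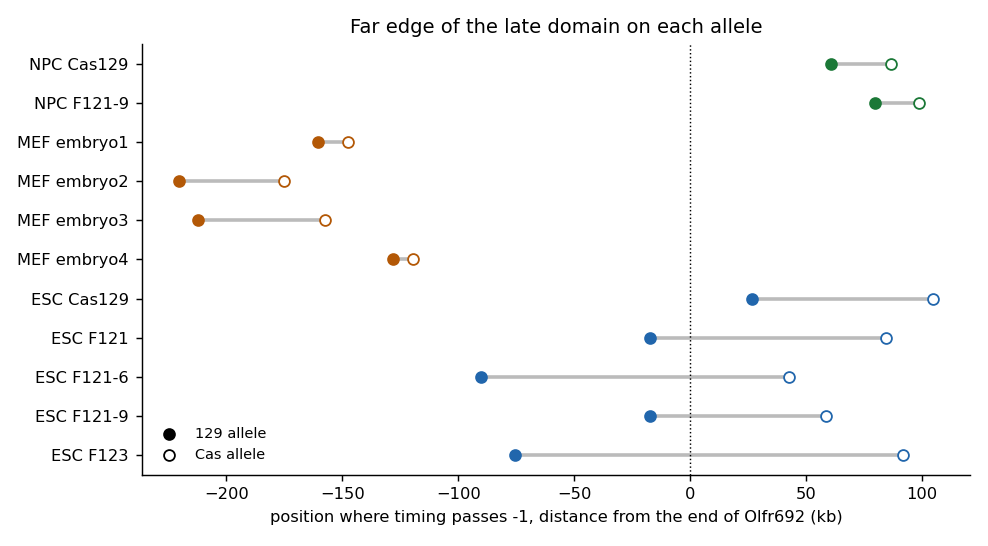
Distance in kb from the end of Olfr692 to the position where timing passes -1, for the 129 allele (filled) and the Cas allele (open) of each NPC line, MEF embryo and ESC line. The 129 edge minus the Cas edge is -26.8 and -18.5 kb in NPC lines, -54.3 to -8.87 kb in MEF embryos and -167 to -76.2 kb in ESC lines.

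Away from the far end, few windows had an allelic difference past the thresholds. NPC allelic difference was called in 2 of 49 member windows (beside 4.71% of all windows), 1 in each direction. The window of Olfr610 to Olfr612, chr7:103500001-103550000, had -0.61 in F121-9 NPCs and -1.64 in Cas129 NPCs (-1.48 and -1.80 in its repeat profiles), a mean of -1.13 ± 0.72 (adjusted p = 0.0213 by limma). The ESC lines had -0.23 (F121), 0.53 (F121-6), 0.59 (F121-9), 0.59 (F123) and 0.04 (Cas129), all above both NPC lines, and NPC minus ESC was -1.43 ± 0.29 (SE, adjusted p = 0.00487), or -1.44 with F121-9 and Cas129 paired by line (adjusted p = 0.0533). At Olfr650-ps1, next to Trim6, NPC lines had 0.31 and 1.22, MEF embryos 1 to 4 had 0.08, 0.51, 0.51 and 0.10, and ESC lines had -0.36, -0.38, -0.24, -0.54 and -0.28 in the order above. NPC minus ESC was 1.13 ± 0.23 (SE, adjusted p = 0.00534) and MEF minus ESC 0.66 ± 0.18 (adjusted p = 0.0156). Both NPC calls against 0 were lost without Cas129 NPCs and, with -1.13 and 0.77 as before, without embryos 1 and 3 (adjusted p = 0.061 and 0.0877), which enter through the shared spread. Of 18 alternative settings, those were the 2 that lost the call at Olfr610 to Olfr612, while 9 lost it at Olfr650-ps1, centred columns among them (0.72, adjusted p = 0.055).

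MEF allelic difference was called in 0 of 49 member windows by limma, beside 12.9% of all windows, with 11 of 49 member windows and 14551 of 43941 windows at an unadjusted p below 0.05. The windows of largest size were negative before the beta-globin genes, as at Olfr596 to Olfr600, where embryos 1 to 4 had -0.48, -0.96, -0.11 and -0.39 (mean -0.49 ± 0.35). That window had an adjusted p of 0.0346 (limma) but a size under the minimum of 0.5. Among differences of differences, NPC minus ESC was called in 8 member windows (2 up, 6 down, beside 16.1% of all) and MEF minus ESC in 10 (1 up, 9 down, beside 27.4% of all). Of these, 4 and 7 lie in the far stretch where ESCs have the 129 allele earlier. NPC minus ESC dropped to 2 called windows without Cas129 NPCs and to 0 with F121-9 and Cas129 paired by line, and MEF minus ESC to 3 without embryos 1 and 3, which leaves 2 embryos. Repeat profiles differed more in the cluster than elsewhere: in 11 of 12 pairs of repeat profiles the median gap in allelic difference was wider over member windows (0.203 to 0.859) than over all windows (0.201 to 0.667). At Olfr601, Olfr602-ps1 and Olfr603 the ESC lines ranged from -1.20 (F121) to 1.20 (F121-9), and the Cas129 ESC repeats had 1.66 and -1.51.

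In XEN cells, where the difference is C57B6 minus Cas, the largest values lay on either side of the Trim genes. The window of Olfr659, Olfr660-ps1 and Olfr661, chr7:104650001-104700000, had 1.41 and 1.89 in the 2 profiles, and the 8 windows between the beta-globin genes and Trim6 had a median of 0.92. At the same window 129 minus Cas was -0.56 and 1.00 in F121-9 and Cas129 NPCs, -0.03 to 0.61 in MEFs and 0.20 to 1.07 in ESC lines. The lowest XEN window was that of Olfr596 to Olfr600, with -1.64 and -0.40. At Olfr684 and Olfr685, where ESC lines had 0.56 to 1.40, XEN profiles had -0.15 and -0.07. V6.5, 129 minus C57B6, had -0.01 there. Its alleles differed by a median of 0.0289 on the autosomes and 0.105 over the member windows, with 0.49 at Olfr605 before the beta-globin genes.

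Cells on feeders were compared with cells in 2i in the F121-6 and F121-9 lines, in a fit that held a term for the line. Here the units were the 8 single profiles and not line means. The SEs and p-values of this fit thus rest on repeat profiles of 2 lines, whose spread may be technical. Timing was called in 0 of 49 member windows by limma, beside 5.76% of all windows, with 26 of 49 member windows and 12220 of 43941 windows at an unadjusted p below 0.05. The allelic difference was called in 0 of 49, beside 0.0% of all windows, with 11 of 49 member windows and 5104 of 43941 windows at an unadjusted p below 0.05. In the far stretch the median of feeders minus 2i for the allelic difference was -0.79. At Olfr687 and Olfr688, chr7:105250001-105300000, F121-6 had 0.34 and -0.38 on feeders and 1.80 and 1.99 in 2i. F121-9 had 0.10 and 0.60 on feeders and 0.92 and 0.85 in 2i. Within each line both feeder profiles lay below both 2i profiles there. The difference was -1.22 ± 0.34 (SE, adjusted p = 0.267 by limma), the lowest of the member windows. The highest was 1.62 ± 0.46 at Olfr619 to Olfr622 (SE, adjusted p = 0.277 by limma), and neither passed. Before the beta-globin genes the median of feeders minus 2i was 0.12. With the 2i profiles alone, ESC allelic difference was called in 9 member windows, against 8 with all profiles.

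**Figure D5:**
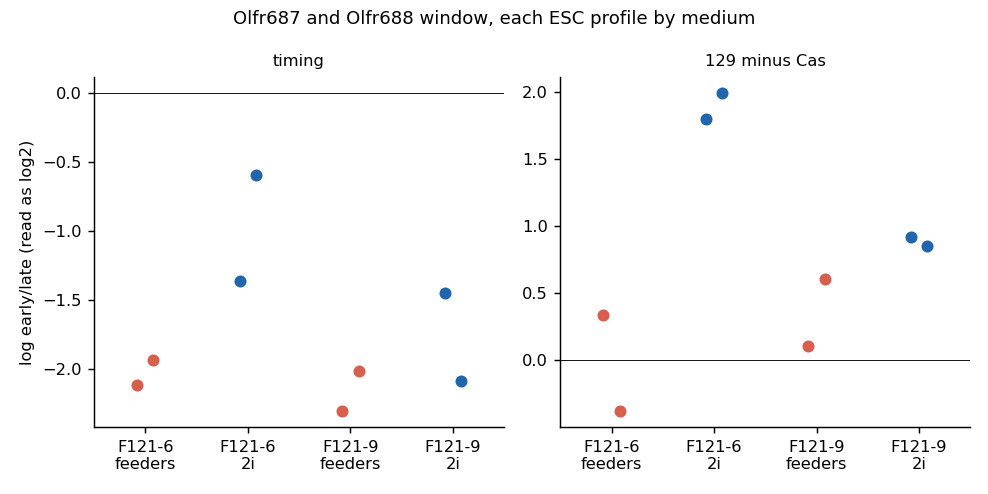
Values of the window of Olfr687 and Olfr688 in each profile of F121-6 and F121-9 ESCs on feeders and in 2i (log ratio of early over late signal, read as log2). The left panel gives timing and the right panel 129 minus Cas, which is -0.38 to 0.60 on feeders and 0.85 to 1.99 in 2i.

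Other genes of the interval and beyond it were read in the same way. The 5 measured beta-globin genes, which encode the beta chains of haemoglobin, had a median timing of -3.91 in NPCs, -3.64 in MEFs, -2.89 in XEN cells and -3.02 in ESCs, and 1 of them (Hbb-y, in a window shared with Olfr66 and Olfr64) was called lower in NPCs than in ESCs. Of the 12 measured Trim genes, a family that includes antiviral ubiquitin ligases such as Trim5, 10 were called lower in NPCs than in ESCs and 10 lower in MEFs than in ESCs. Over all 43941 windows, 7053 and 6030 were called lower in these 2 contrasts. Trim5 had -1.63 in NPCs, -2.15 in MEFs, -0.52 in XEN cells and -0.18 in ESCs. These genes lie in few windows: Trim68 and Trim21, the 2 not called, lie near Olfr543. The allelic difference of Trim5 was 1.12 in NPCs, 0.59 in MEFs and -0.37 in ESCs. In that difference 8 of the 12 were called higher in NPCs than in ESCs and 8 higher in MEFs than in ESCs. Over all windows 16.1% and 27.4% were called in either direction. Tested against 0, the difference was called in 3 of the 12 in NPCs and 5 in MEFs, all with the 129 allele earlier. The shares over all windows were 4.71% and 12.9%. Over all windows 44.0% were called in MEF minus ESC timing, 13311 of 43941 higher and 6030 lower. Of 26 measured flanking genes 14 were called higher in MEFs than in ESCs as deposited, all beyond the far end, and 0 lower. Among them Cnga4, a subunit of the olfactory cyclic nucleotide-gated channel, had 0.99 in MEFs and -0.75 in ESCs, and 129 minus Cas at Cnga4 was 0.26 in MEFs and 0.73 in ESCs. MEF minus ESC timing crosses the 2 scalings. In the member windows after Trim30d its upward calls went from 9 as deposited to 1 with centred columns and 1 after quantile normalization. Of 22 measured autosomal genes of odorant signalling and receptor choice, 3 were called higher and 1 lower in NPCs than in ESCs, beside 32.5% of all windows called. Lhx2, a regulator of receptor genes, was early in all (3.28 in NPCs, 3.38 in MEFs, 2.41 in XEN cells and 2.68 in ESCs).

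Set beside the other olfactory receptor genes of the autosomes (1261 genes, 925 with a window, 422 windows), the cluster had a later median in every cell type. Median timing in NPCs was -3.45 in the cluster, against -2.99 in the other receptor windows, and in MEFs -3.10 against -2.19. In XEN cells it was -2.09 against -0.98, and in ESCs -2.69 against -1.49. This did not hold for each chromosome: receptor windows on chromosome 9 had -3.66 in NPCs, -3.63 in MEFs and -3.15 in XEN cells. NPC minus ESC timing was called in 22.4% of cluster windows and in 54.5% of the other receptor windows, where 7 of 230 calls were upward. By chromosome, the receptor windows elsewhere on chromosome 7 had an ESC median of -1.07 with 76.4% called in NPC minus ESC, and those on chromosome 9 had -1.94 with 73.1% called. Those on chromosome 2 were closest to the class I cluster, with -2.75 and 42.0% called. Only 134 of the 377 receptor genes on chromosome 2 have a window, against 176 of 179 on chromosome 9, so the chromosome 2 values leave out most of its receptor genes. For ESC allelic difference, 16.3% of cluster windows were called, against 26.3% of the other receptor windows, 47.3% elsewhere on chromosome 7 and 8.0% on chromosome 2. The calls of the cluster were all upward, as were 53 of 111 among the other receptor windows. Windows of a cluster are not independent, and these shares were not tested against each other.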

How the data were processed

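The deposited table gives, per the file headers, 1 column per allele and profile for 46268 windows of 50 kb, with values that are log ratios of early over late signal. The authors' deposited values are read here as log2, since the base is not given in the sources used here, and neither are scaling, smoothing and the assignment of reads to alleles. The submitters' processing notes name mm10, Bowtie2, SAMtools and bedtools, with no versions. All columns of values were used.

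Profiles of a line or embryo were averaged, and 5 ESC lines, 2 NPC lines and 4 MEF embryos were fitted together in limma 3.58.1 (R 4.3.3) over 43941 autosomal windows, two-sided, with Benjamini-Hochberg adjustment over all of them. Feeders were set against 2i over 8 profiles. A member is counted by the window that holds most of it. Names come from RefSeq (GRCm38.p6). Named are the members at the ends of the interval, beside the beta-globin genes, in the highest and lowest window of each cell type, and in the 3 called windows of largest size per contrast. The members of other windows named as ranges were chosen after their values were seen. The members and lists were chosen with earlier results of these data known.

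Replicate numbers did not pair profiles: over 55 pairs of groups, deviations of like-numbered profiles correlated at -0.07 to 0.04 for the allelic difference and -0.40 to 0.30 for timing. On simulated data with 200 changed windows, the fit recovered 90.5% of changes of 2 in NPC minus ESC timing (4 false calls) and 98.5% in MEF minus ESC timing (1 false). For allelic differences of 1 it recovered 85.5% in ESCs (3 false), 86.0% in MEFs (10 false) and 54.0% in NPCs (7 false). Simulated windows were drawn independently, with the same spread in every group, whereas real neighbouring windows correlated at 0.974 to 0.994. Far more than 200 windows were called in the real data (14273 in NPC minus ESC timing), so these shares need not carry over to them. Alternatives were centring, quantile normalization, no minimum size, each line or embryo left out, replicate and line blocks, 2i profiles only, single alleles, and embryos 1 and 3 left out.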

Additional observations from a re-analysis of the deposited data

Results flagged for a closer look

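In the last window, at Olfr692, MEF embryo 1 had an allelic difference of 0.165, apart from the other embryos, whose nearest value was 0.251. Of 80 groups of 4 or 5 values checked in this way, chance would set apart about 5%, and this was the only one.

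The allelic difference changed between cell types in several named windows by the test of that change in limma. These windows were named because they were the called windows of largest size in this same test. For NPC minus ESC it called 16.3% of member windows, beside 16.1% of all windows. For MEF minus ESC it called 20.4% of member windows, beside 27.4% of all. NPC minus ESC was -1.43 at Olfr610 to Olfr612 (adjusted p = 0.00487), -1.16 at Olfr606 to Olfr609 (adjusted p = 0.0304) and -1.13 at Olfr684 and Olfr685 (adjusted p = 0.00707). With F121-9 and Cas129 paired by line, NPC minus ESC was -1.44 (adjusted p = 0.0533), -1.20 (adjusted p = 0.0676) and -0.70 (adjusted p = 0.141) in these 3 windows, in the same order, and none passed. MEF minus ESC was -0.883 at Olfr606 to Olfr609 (adjusted p = 0.0222), -0.736 at Olfr686 and Olfr687 (adjusted p = 0.00634) and -0.734 at Olfr684 and Olfr685 (adjusted p = 0.0113). At Olfr606 to Olfr609 the NPC minus ESC call was lost in 7 of 19 alternative settings and the MEF minus ESC call in 5 of 18. There the NPC lines had -0.60 and -0.82, the MEF embryos -0.51, -0.14, -0.43 and -0.66, and the ESC lines -0.48 (F121), 0.88 (F121-6), 0.87 (F121-9), 0.87 (F123) and 0.10 (Cas129), so 1 ESC line lay among the NPC and MEF values.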

How the results depend on the processing

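Of 176 alternative counts of called member windows, 151 stayed within 1.5 times the reported count and 25 did not. Of 384 alternative values of named windows, 354 kept direction and call, 30 lost the call and 0 changed sign. NPC allelic difference gave 1 called window with centred columns and 0 without embryos 1 and 3. NPC minus ESC allelic difference gave 4 with the replicate block, 3 with the line as a random block and 0 with F121-9 and Cas129 paired by line. MEF minus ESC allelic difference gave 3 without embryos 1 and 3. The replicate block changed no other count by over 1.5 times. Without a minimum size, the counts were 18 for NPC minus ESC timing, 36 for MEF minus ESC timing, 5 for feeders minus 2i timing and 1 for MEF allelic difference. Dropping the minimum size raises the calls over all windows too. At an unadjusted p below 0.05 by limma, NPC minus ESC timing had 21 of 49 member windows and 24940 of 43941 windows. MEF minus ESC timing had 37 of 49 and 33156 of 43941. Centring gave 2 windows for feeders minus 2i timing. Leaving out 1 line, embryo or profile at a time gave 7 to 10 windows for ESC, 0 to 3 for NPC and 0 to 1 for MEF allelic difference, 2 to 10 for NPC minus ESC and 6 to 12 for MEF minus ESC allelic difference. For timing it gave 11 to 14 for NPC minus ESC, 18 to 21 for MEF minus ESC, 10 to 14 for MEF minus NPC and 0 to 3 for feeders minus 2i. The lowest values came without Cas129 NPCs (0 and 2) and without embryo 1 (6), and NPC minus ESC then rests on 1 NPC line assumed to vary like the other groups. The causes were not tested beyond the smaller number of samples. Depth cannot be judged without read counts.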
